A study of Homo sapiens with 4 samples.

Results

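The genes described here build 2 kinds of contact between epithelial cells, tight junctions and desmosomes. They were taken by symbol from the deposited count files: every numbered claudin, DSC1 to DSC3, DSG1 to DSG4, PKP1 to PKP4, the zonula occludens (TJP) genes, and OCLN, MARVELD2, MARVELD3, F11R, JAM2, JAM3, CGN, DSP, JUP, PERP, PPL, EVPL and EPCAM. This gave 51 of the 60623 genes in the files. The data were RNA-seq counts of BICR10, a human head and neck cancer (HNC) cell line, transduced with lentivirus for a control hairpin (shControl, 2 libraries) or a hairpin against YEATS2 (shYEATS2, 2 libraries) and selected with puromycin. YEATS2 reads crotonylated histones, and the study asked how its loss affects epithelial-to-mesenchymal transition (EMT) genes in this line. The hairpin carried by each shYEATS2 library is not given in the sources used here. The labels do not say whether the libraries of a group came from separate cultures, so the p-values below measure the spread between libraries, which may be technical.

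A tight junction seals the space between neighbouring cells near their apical side. Claudins and the MARVEL proteins (occludin, tricellulin) form its strands, junctional adhesion molecules lie beside them, and the zonula occludens proteins and cingulin tie the strands to actin. A desmosome resists mechanical pull: its cadherins (desmogleins and desmocollins) bridge the cells, the armadillo proteins plakoglobin and the plakophilins gather them in a plaque, and the plakins, desmoplakin first, anchor the plaque to keratin filaments. Squamous epithelia, in which most HNC arises, are rich in desmosomes, and loss of both junctions is a classic part of EMT.

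The targeted gene followed the labels: YEATS2 stood at 66.1 and 66.7 CPM (counts scaled to library size with TMM factors) in the shControl libraries and at 29.2 and 29.1 CPM in the shYEATS2 libraries. This is a log2 fold change (shYEATS2 over shControl) of −1.19 ± 0.08 (SE), or 44% of control. Library totals were 47297970 and 39824898 counts in shControl and 24072396 and 11334133 counts in shYEATS2, so depth cannot be told apart from condition, and 3 counts correspond to 0.0661 to 0.255 CPM per library. The labelled epithelial identity was only partly borne out by 13 squamous epithelial markers. KRT8 (269 and 264 CPM in shControl), KRT18 (110 and 111 CPM) and SFN (130 and 130 CPM) were present, while KRT19 and GRHL2 had 0 counts in all 4 libraries, and KRT17, TP63 and ESRP1 were too low to test. Of these markers 8 were tested, 5 fell and 1 rose. Among the 5, 1 that averaged under 1 CPM had enough counts for the test in shControl alone. The marker that rose had enough counts in both shYEATS2 libraries but not in shControl library 2. Fibroblast markers were abundant and lower in shYEATS2: the 11 genes summed to 8105 and 8030 CPM in shControl and to 2812 and 2641 CPM in shYEATS2, and 9 of 10 tested fell. The 7 endothelial markers summed to 44.4 and 45.6 CPM in shControl and to 23.4 and 25.4 CPM in shYEATS2, with 2 of 4 tested lower and 1 higher. The higher gene, TEK, had 4 and 6 counts in shControl and 9 and 7 counts in shYEATS2, enough for the test in shYEATS2 alone. The 6 leukocyte markers summed to 8.36 and 9.29 CPM against 1.86 and 1.36 CPM, with the single tested gene (LAPTM5) lower and 2 at 0 in all libraries. The part of these markers in the results below was not tested. In bulk RNA, fewer cells of a type and less RNA per cell cannot be told apart.

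The junction genes split rather than moving together. Of the 51 genes, 26 had enough counts to be tested (51.0%, against 28.1% of all genes in the files), 5 were lower in shYEATS2, 8 were higher and 13 were not called, by edgeR's quasi-likelihood test at a Benjamini-Hochberg adjusted p under 0.05 over all 17058 tested genes. Lower calls made up 23.6% and higher calls 22.6% of all tested genes, so the members' shares of 19.2% and 30.8% were close to the background. With library totals in place of TMM, which moved the median of all tested genes from −0.01 to 0.13, 4 members were lower and 12 higher. Changes of at least 2-fold were fewer in the background, at 3.70% lower and 5.99% higher, and the 26 members held 4 lower (15.4%: DSC3, DSP, PKP1, EPCAM) and 3 higher (11.5%: CLDN1, JUP, EVPL). Of these genes, EPCAM and EVPL averaged under 1 CPM and lost their calls in several alternative fits, so these shares rest on few genes. EVPL also had enough counts for the test in both shYEATS2 libraries but not in shControl library 2. The median log2 fold change of the 26 tested members was 0.28, against −0.01 for all tested genes. This members' median was not stable: it was 0.42 with library totals alone and 0.09 without shYEATS2 library 1. Because only genes with enough counts in some libraries were tested, these counts describe the 26 and not all 51.

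Called genes were counted by junction, beside the 23.6% lower and 22.6% higher of all tested genes. On the tight junction side, 13 of 34 genes were tested: 0 were lower, 4 (30.8%) were higher (CLDN1, CLDN12, CLDN15, TJP1) and 9 were not called, with a median log2 fold change of 0.45. On the desmosome side, 11 of 15 genes were tested: 4 (36.4%) were lower (DSC3, DSP, PKP1, PPL), 3 (27.3%) were higher (JUP, PKP4, EVPL) and 4 were not called, with a median of 0.06. The difference between the sides was not tested. PERP (higher), a membrane protein also found in desmosomes, and EPCAM (lower) were counted on neither side, so the desmosome counts depend on where PERP is placed.

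**Figure D1:**
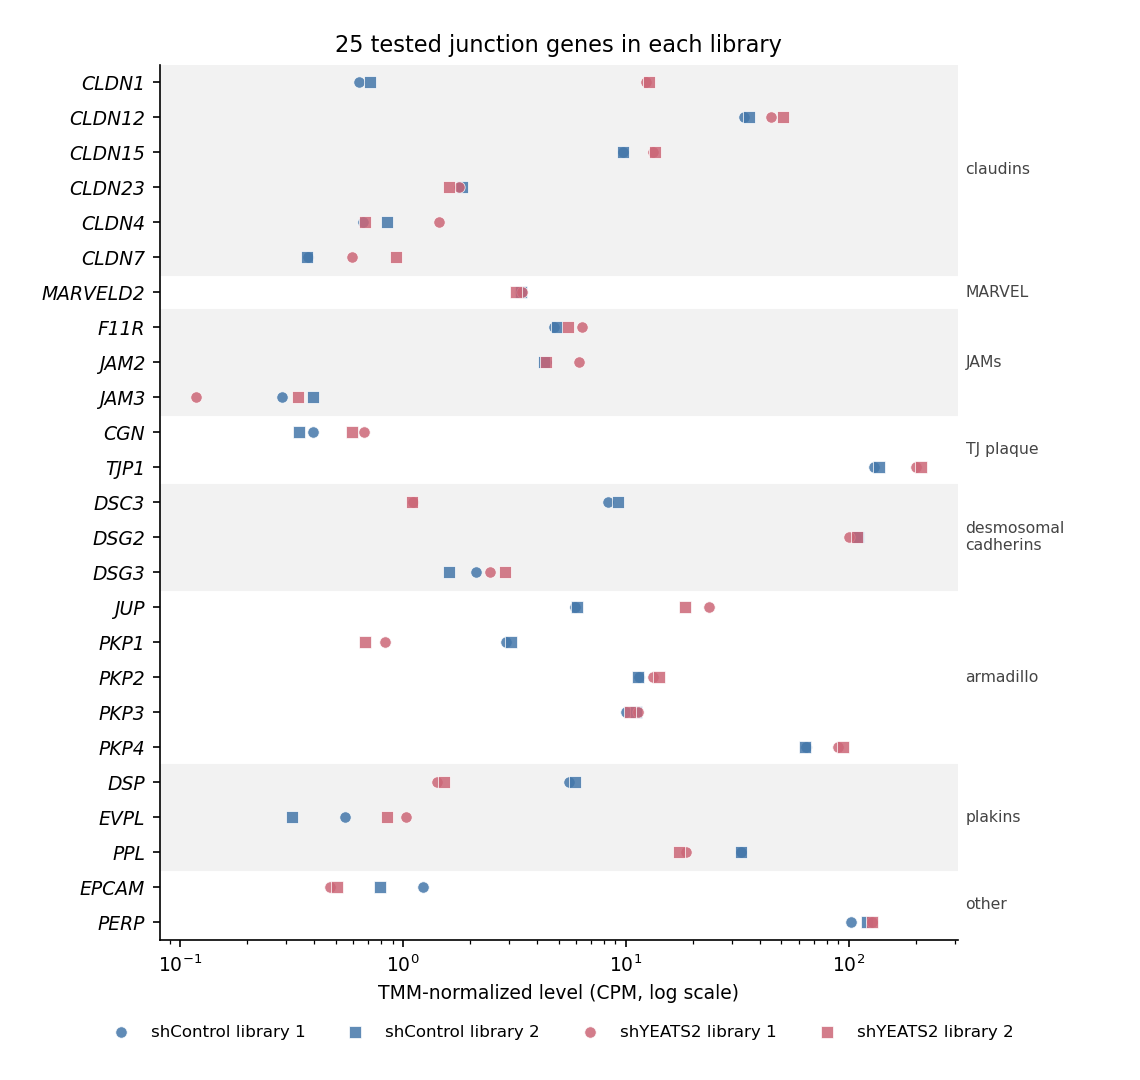
Level of 25 of the 26 tested junction genes in each library, in TMM-normalized CPM on a log axis, with genes grouped by role (blue, shControl; red, shYEATS2; circles, library 1; squares, library 2). CLDN1 moves from 0.639 and 0.715 CPM to 12.4 and 12.7 CPM, DSC3 moves the other way, from 8.33 and 9.21 CPM to 1.11 and 1.10 CPM, and DSG2 stays between 100 and 110 CPM.

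Claudins are the strand-forming proteins that set which ions pass a tight junction. CLDN1, the sealing claudin of the epidermis, rose more than any other tested member. Its level was 0.639 and 0.715 CPM in shControl (29 and 27 counts) and 12.4 and 12.7 CPM in shYEATS2 (313 and 150 counts). Both shYEATS2 libraries lay far above both shControl libraries, although they were the shallower ones. The log2 fold change was 4.21 ± 0.20 (SE, 95% interval 3.81 to 4.60), an 18.5-fold rise, with an adjusted p of 1.8e-28. The gene (ENSG00000163347) lies on the minus strand at chr3:190305707-190322446 (GRCh38), and CLDN16, on the plus strand, starts 94 bases beyond its start. CLDN16 itself had 1 count in the 4 libraries together. The interval is printed because it is all of the exon-free sequence directly before the CLDN1 start (RefSeq promoter table, GRCh38, chr3:190322447-190322540, minus strand, lower case throughout as no motif searched was found):
CLDN1: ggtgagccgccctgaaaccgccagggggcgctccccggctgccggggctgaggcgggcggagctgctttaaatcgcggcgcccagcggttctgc

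The other claudins were either moderately expressed and slightly higher, or close to silent. CLDN12, a claudin without the usual PDZ-binding tail, stood at 34.1 and 35.6 CPM in shControl and at 45.0 and 50.6 CPM in shYEATS2, a log2 fold change of 0.45 ± 0.08 (SE) with an adjusted p of 2.9e-06. Genes on the same strand overlap 17.6% of its exon bases. CLDN15, a pore-forming claudin of the gut, stood at 9.70 and 9.76 CPM in shControl and at 13.3 and 13.5 CPM in shYEATS2, a log2 fold change of 0.46 ± 0.12 (SE) with an adjusted p of 0.00081. For both genes the 2 groups did not overlap. CLDN23 did not pass the test (log2 fold change −0.09, 95% interval −0.66 to 0.47). CLDN4 (0.63, −0.14 to 1.41) and CLDN7 (0.94, −0.07 to 1.95), which mark simple epithelia, averaged under 1 CPM and were not called. CLDN4 was high in shYEATS2 library 1 alone (1.46 CPM, against 0.661, 0.847 and 0.679 CPM in the others), and its log2 fold change was −0.15 without that library.

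Of the 24 claudins, 18 were too low to test. CLDN2, CLDN5, CLDN8, CLDN14, CLDN19, CLDN20, CLDN24, CLDN25 and CLDN34 had 0 counts in every library, which allows up to 0.0361 CPM over the shControl group and 0.0808 CPM over the shYEATS2 group, for counting error only. CLDN6, CLDN9, CLDN10, CLDN11, CLDN16, CLDN17, CLDN18 and CLDN22 had 1 to 12 counts in all. CLDN3, beside CLDN4 on chromosome 7 with 29.3 kb between them, had 2 and 1 counts in shControl and 15 and 2 counts in shYEATS2, so most of its counts came from 1 library.

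Per kb of exon, which allows levels of different genes to be compared, the summed claudin level was 9.84 and 10.2 CPM per kb in shControl and 16.6 and 17.2 CPM per kb in shYEATS2. CLDN12 made up 51.6% and 51.8% of this sum in shControl and 40.3% and 43.7% in shYEATS2. CLDN15 made up 34.1% and 32.9%, and then 27.7% and 27.1%. CLDN1 went from 1.79% and 1.92% to 20.5% and 20.4%, which placed it just below CLDN12 and CLDN15 in the shYEATS2 libraries, while in the shControl libraries it also lay below CLDN23 (8.51% and 8.37%). With 2 libraries against 2 an exact two-sided permutation test of such a share cannot go below p = 0.333, and the shares are given without a test.

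The MARVEL proteins, which join claudins in the strands, showed no called change. Occludin (OCLN), the first strand protein described, had 0 and 2 counts in shControl and 2 and 2 counts in shYEATS2, too few to test, and its partial copy OCLNP1 had 0 counts. Tricellulin (MARVELD2), found where 3 cells meet, stood at 3.35 and 3.39 CPM in shControl and at 3.43 and 3.22 CPM in shYEATS2. Its groups overlapped, and the log2 fold change was −0.01 (95% interval −0.42 to 0.41), which leaves room for changes of up to about that size. MARVELD3 had 8 counts in all.

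The 3 junctional adhesion molecules, immunoglobulin-like proteins beside the strands, were not called. F11R (JAM-A) had a log2 fold change of 0.32 (95% interval −0.01 to 0.64, adjusted p = 0.11) and JAM2 one of 0.34 (−0.01 to 0.69, adjusted p = 0.10). A gene on the same strand, with 0 counts in every library, overlaps 36.6% of the F11R exon bases. Ambiguous read pairs were left out of the counts, so the 0 counts do not show that the F11R level is unaffected. For F11R and JAM2 both shYEATS2 libraries were above both shControl libraries. JAM2 passed the test without shYEATS2 library 2 (log2 fold change 0.51, adjusted p = 0.025). JAM3 averaged 0.285 CPM and had a wide interval (−0.80, −2.22 to 0.63), and 35.6% of its exon bases lie opposite NCAPD3, which is far more abundant (111 and 119 CPM in shControl). Whether counting used strand is not given in the sources used here.

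In the plaque, TJP1 (ZO-1), the main scaffold under the strands, rose. It stood at 130 and 137 CPM in shControl and at 200 and 212 CPM in shYEATS2, and the groups did not overlap. The log2 fold change was 0.62 ± 0.06 (SE, 95% interval 0.50 to 0.75), a 1.54-fold rise with an adjusted p of 1.3e-13. TJP3 had 9 counts in all. Cingulin (CGN), which links the plaque to actomyosin, averaged 0.501 CPM and was not called (0.78, −0.24 to 1.80). The level of TJP1 relative to CLDN1, per kb, was 65.2 and 61.3 in shControl and 5.18 and 5.34 in shYEATS2.

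Promoter windows were searched for the letters CAGGTG and its reverse complement CACCTG, the E-box bound by EMT repressors such as SNAI1 and ZEB1. In the RefSeq table (GRCh38), 35 of the 51 members had a window, and 12 of them (34.3%) held the motif within the 250 bases before a start, against 5635 of 27305 genes (20.6%). Counted by windows, which allows for members with several starts, the shares were 25.5% of 51 and 17.5% of 35116. Neither share was limited to sequence outside exons. Members with and without a call held it: it was found for TJP1, JUP and DSP, and for DSG2 and OCLN, and not for CLDN1, DSC3 or PKP1. The matches of JUP, DSP and OCLN lie wholly or partly in annotated exons. Matches clear of any exon were found only for CLDN18, CLDN25, DSC2, DSG1, DSG2 and TJP1. TJP1 has 4 windows, of which 1 holds a match, in capitals, that begins 88 bases before that start. This window is printed because TJP1 rose and the match lies outside any exon (chr15:29969050-29969299, minus strand):
TJP1: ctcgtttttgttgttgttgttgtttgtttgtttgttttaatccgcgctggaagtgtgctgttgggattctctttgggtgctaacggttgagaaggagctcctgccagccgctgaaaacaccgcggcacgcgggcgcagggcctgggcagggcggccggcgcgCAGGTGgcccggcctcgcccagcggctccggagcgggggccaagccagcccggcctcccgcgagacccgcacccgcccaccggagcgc

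**Figure D2:**
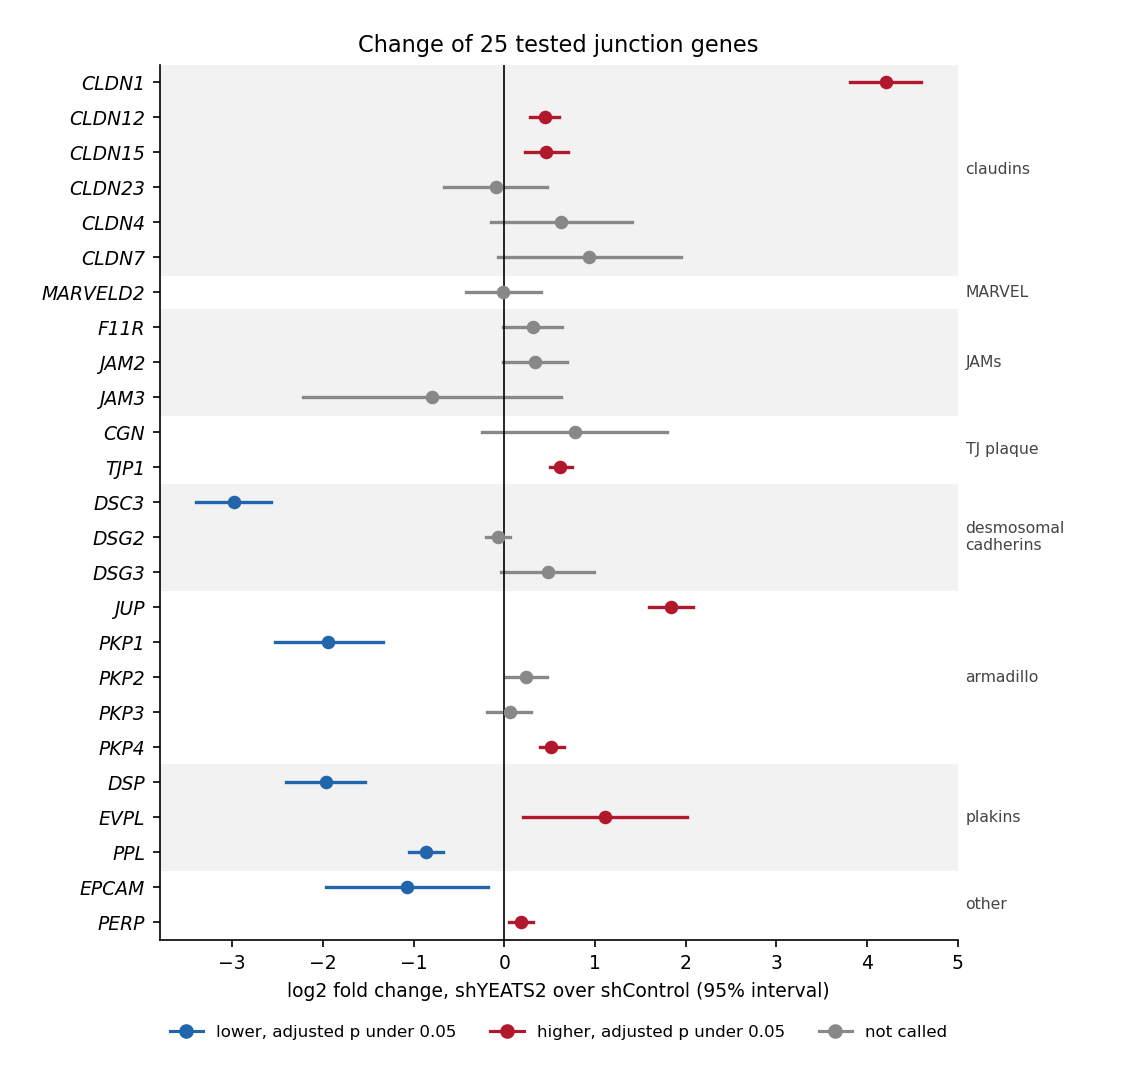
log2 fold change (shYEATS2 over shControl) of the same 25 tested junction genes with 95% intervals, in the same order and role bands (blue, lower; red, higher; grey, not called). The largest changes are CLDN1 at 4.21 and DSC3 at −2.98, and the tight junction rows hold no blue point.

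The 7 desmosomal cadherins lie in 1 cluster of 560 kb on chromosome 18 (GRCh38, chr18:30989365-31549008), with the desmocollins on the minus strand and the desmogleins on the plus strand. At its outer ends sit the members with the highest counts of each kind, DSC3 (chr18:30989365-31042815) and DSG2 (chr18:31498177-31549008). DSC3, a desmocollin of basal squamous cells, stood at 8.33 and 9.21 CPM in shControl and at 1.11 and 1.10 CPM in shYEATS2. The groups did not overlap and the fall was to 12.7% of control (log2 fold change −2.98 ± 0.21 SE, 95% interval −3.40 to −2.57, adjusted p = 7.3e-20). DSG2, the desmoglein found in all desmosome-bearing tissues, stood at 108 and 110 CPM in shControl and at 100 and 109 CPM in shYEATS2. Its groups overlapped and its interval was narrow around 0 (−0.07, −0.20 to 0.06, adjusted p = 0.40), so a change as large as that of DSC3 lies outside it. Without shYEATS2 library 2 DSG2 was called lower (−0.13, adjusted p = 0.05, rounded up from just under the threshold).

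Between them, DSC2, the widely expressed desmocollin, had 13 and 16 counts in shControl and 3 and 0 counts in shYEATS2, too few for the test. DSC1 had 0 counts in every library, DSG1 had 1 count and DSG4 had 3 counts. DSG3, the pemphigus vulgaris antigen of basal squamous cells, stood at 2.12 and 1.61 CPM in shControl and at 2.45 and 2.88 CPM in shYEATS2, and was not called (0.48, −0.03 to 0.99, adjusted p = 0.12). The desmocollins summed to 1.11 and 1.23 CPM per kb in shControl and to 0.153 and 0.143 CPM per kb in shYEATS2, while the desmogleins summed to 11.8 and 11.9 CPM per kb and then to 11 and 12 CPM per kb. DSG2 gave 95.7% to 97.6% of the desmoglein sum in every library. The ratio of DSG2 to DSC3, per kb, went from 10.5 and 9.72 to 73.4 and 80.0.

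The exon-free sequence before the DSC3 start (chr18:31042816-31042992, minus strand) and the window before the DSG2 start (chr18:31497927-31498176, plus strand) are shown because the genes differ in their response at opposite ends of the cluster. The DSG2 window holds 2 E-box matches, in capitals, which begin 232 and 116 bases before the start, and the DSC3 stretch holds none (RefSeq, GRCh38).
DSC3: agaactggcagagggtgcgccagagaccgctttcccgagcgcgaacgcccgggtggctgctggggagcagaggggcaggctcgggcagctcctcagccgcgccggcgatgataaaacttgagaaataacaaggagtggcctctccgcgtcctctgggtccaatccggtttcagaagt
DSG2: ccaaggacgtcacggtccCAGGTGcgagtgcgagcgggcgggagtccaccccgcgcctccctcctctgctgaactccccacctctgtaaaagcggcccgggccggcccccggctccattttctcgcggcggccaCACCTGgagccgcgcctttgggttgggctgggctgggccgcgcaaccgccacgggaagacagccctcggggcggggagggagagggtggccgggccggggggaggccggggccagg

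The armadillo proteins, which bind the cadherin tails and desmoplakin, moved in opposite directions. Plakoglobin (JUP, ENSG00000173801, chr17:41754604-41786931, minus strand), shared by desmosomes and adherens junctions, stood at 5.95 and 6.06 CPM in shControl and at 23.7 and 18.5 CPM in shYEATS2. Both shYEATS2 libraries were above both shControl libraries, with a wider spread between them, and the log2 fold change was 1.84 ± 0.12 (SE, 95% interval 1.6 to 2.08), a 3.58-fold rise with an adjusted p of 3.8e-21. Plakophilin 1 (PKP1, ENSG00000081277, chr1:201283452-201332993, plus strand), the plakophilin of suprabasal squamous layers, stood at 2.91 and 3.07 CPM in shControl and at 0.829 and 0.679 CPM in shYEATS2. The groups did not overlap, and the log2 fold change was −1.94 ± 0.30 (SE), a fall to 26.1% of control with an adjusted p of 1.2e-07. The exon-free bases before its start (RefSeq, GRCh38, chr1:201283256-201283451, plus strand), shown for the armadillo gene that fell, hold no E-box match:
PKP1: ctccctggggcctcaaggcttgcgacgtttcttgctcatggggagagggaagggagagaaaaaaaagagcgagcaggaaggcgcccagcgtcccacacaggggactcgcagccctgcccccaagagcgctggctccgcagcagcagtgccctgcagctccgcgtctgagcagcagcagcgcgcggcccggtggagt

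The other plakophilins did not follow PKP1. PKP4, a plakophilin relative found in several kinds of junction, stood at 64.3 and 63.9 CPM in shControl and at 90.1 and 94.6 CPM in shYEATS2, a log2 fold change of 0.52 ± 0.07 (SE) with an adjusted p of 9.0e-10. Its groups did not overlap. PKP2, the plakophilin of simple epithelia and heart, missed the threshold (0.24, 95% interval 0.02 to 0.47, adjusted p = 0.073), with both shYEATS2 libraries above both shControl libraries. PKP3 was not called (0.06, −0.19 to 0.30) and its groups overlapped. PKP4 made up 61.4% and 59.6% of the summed plakophilin level per kb in shControl and 68.2% and 70.0% in shYEATS2, and PKP1 went from 4.27% and 4.40% to 0.964% and 0.771%. The ratio of PKP2 to PKP1, per kb, went from 2.39 and 2.24 to 9.66 and 12.5.

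Of the plakins, DSP and PPL fell and EVPL rose. Desmoplakin (DSP, ENSG00000096696, chr6:7541338-7586714, plus strand), the obligate link to keratin filaments, stood at 5.56 and 5.90 CPM in shControl and at 1.42 and 1.53 CPM in shYEATS2. The groups did not overlap, and the log2 fold change was −1.97 ± 0.22 (SE, 95% interval −2.41 to −1.53), a fall to 25.5% of control with an adjusted p of 9.9e-12. Periplakin (PPL), a plakin of the cornified envelope and of desmosomes, stood at 33.0 and 32.9 CPM in shControl and at 18.7 and 17.3 CPM in shYEATS2, a fall to 55.0% of control (−0.86 ± 0.09 SE, adjusted p = 2.8e-12). Its partner envoplakin (EVPL) stood at 0.551 and 0.318 CPM in shControl and at 1.03 and 0.848 CPM in shYEATS2 (1.11 ± 0.45 SE, adjusted p = 0.038). The EVPL call was kept in 6 of 13 alternatives. It was lost with no filter (adjusted p = 0.085), DESeq2 (0.20) and thinning (0.10), among others, without shControl library 2 (0.80, adjusted p = 0.23), without shYEATS2 library 1 (0.93, adjusted p = 0.30) and without shYEATS2 library 2 (1.21, adjusted p = 0.063).

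PPL and DSP differed in level as well as in change. Per kb, PPL was 10.5 and 9.87 times DSP in shControl and 23.2 and 20 times DSP in shYEATS2. In the same unit, plakoglobin was 2.95 and 2.83 times desmoplakin in shControl and 45.9 and 33.4 times desmoplakin in shYEATS2. Ranked by CPM per kb in shControl among all tested genes, DSP was at percentile 19.8 and DSC3 at percentile 34.3, while DSG2 was at percentile 79.3 and TJP1 at percentile 79.8.

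**Figure D3:**
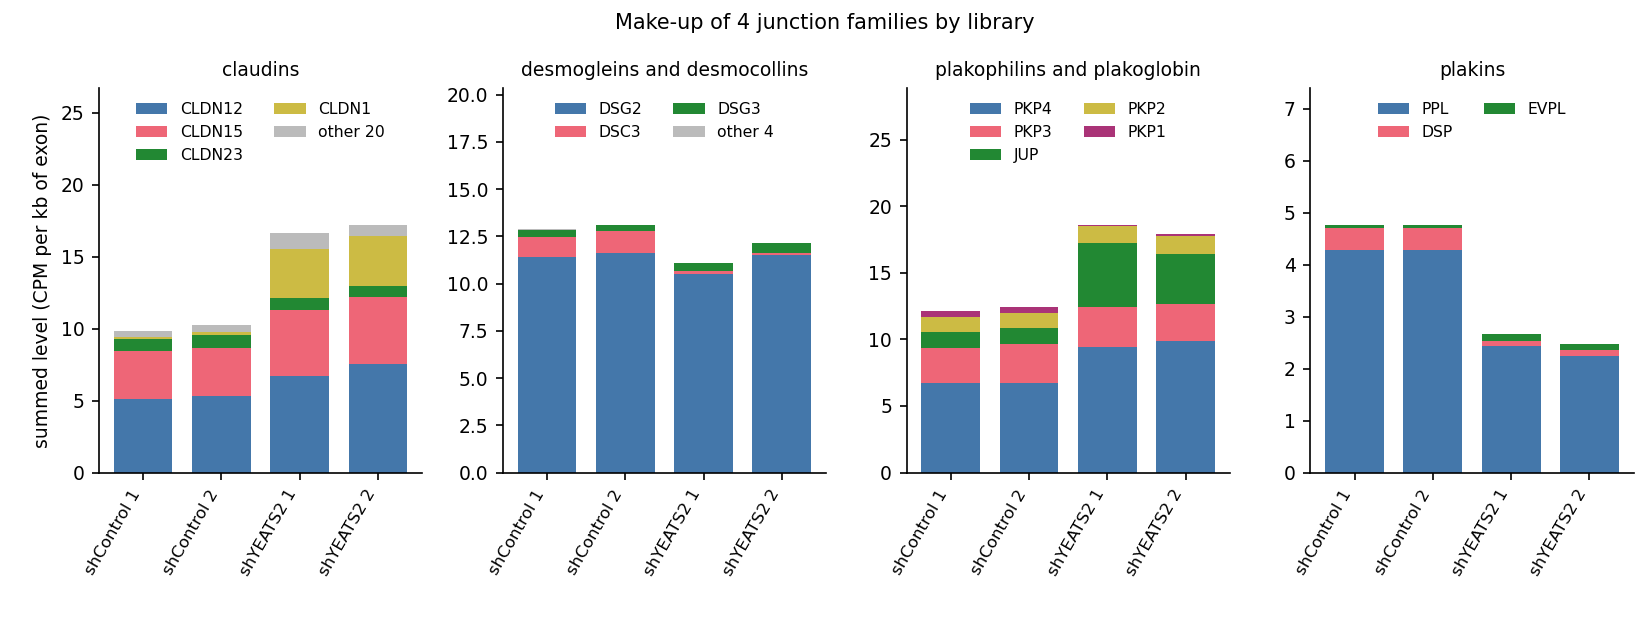
Summed level of 4 junction families in each library, in CPM per kb of exon, stacked by gene (grey, the family's remaining genes), with each panel on its own axis from 0. The claudin sum rises from 9.84 and 10.2 to 16.6 and 17.2 with CLDN1 taking 20.5% and 20.4%, DSG2 is the largest band of the desmosomal cadherins in every library while the DSC3 band shrinks, the plakoglobin band widens, and the plakin sum falls from 4.77 and 4.75 to 2.67 and 2.48.

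PERP and EPCAM, membrane proteins that lie with junctions, moved little or were scarce. PERP, a p53-induced tetraspan protein of desmosomes, was the most abundant member per kb, at percentile 91.3 of the tested genes in shControl. It stood at 103 and 121 CPM in shControl and at 128 and 128 CPM in shYEATS2 (log2 fold change 0.19 ± 0.07 SE, adjusted p = 0.017). The gap between the shControl libraries was larger than that between the nearest libraries of the 2 groups. The call was kept in 8 of 13 alternatives, and it was lost with no filter (adjusted p = 0.13), without shControl library 1 (0.08, adjusted p = 0.59), without shYEATS2 library 1 (0.18, adjusted p = 0.23), without shYEATS2 library 2 (0.19, adjusted p = 0.16) and with DESeq2 (adjusted p = 0.062). EPCAM, an epithelial adhesion protein that binds claudin 7, stood at 1.23 and 0.794 CPM in shControl (56 and 30 counts) and at 0.474 and 0.509 CPM in shYEATS2 (12 and 6 counts). Its log2 fold change was −1.07 ± 0.45 (SE, adjusted p = 0.043), and the call was kept in 3 of 11 alternatives. It was lost with library totals alone (adjusted p = 0.085), upper quartile scaling (0.055), no filter (0.057), limma-voom (0.067) and DESeq2 (0.23), without shControl library 1 (−0.70, adjusted p = 0.35), without shYEATS2 library 1 (−1.01, adjusted p = 0.22) and without shYEATS2 library 2 (−1.11, adjusted p = 0.084). By CPM per kb in shControl, EPCAM ranked at percentile 19.7 of the tested genes.

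Among the 13 called members, the 10 named CLDN1, CLDN12, CLDN15, DSC3, JUP, PKP1, PKP4, DSP, PPL and TJP1 kept their call in every alternative fit that tested them. Over all fits, the log2 fold change of CLDN1 ranged from 4.12 to 4.34, that of JUP from 1.61 to 1.98, that of DSC3 from −3.08 to −2.85 and that of DSP from −2.02 to −1.83. EPCAM, EVPL and PERP did not keep theirs.

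Genes that work with these junctions were counted in 9 lists, whose counts are to be read against the 23.6% lower and 22.6% higher of all tested genes. Of 23 tested tight junction scaffold and polarity partners, 7 were lower and 11 higher (median log2 fold change 0.15). With 14 and 6 counts in shControl and 17 and 6 in shYEATS2, PRKCZ (higher) passed the count filter through shYEATS2 alone. AMOT (lower) had 41 and 31 counts in shControl and 9 and 2 counts in shYEATS2. It reached the filter's level in both shControl libraries but not in shYEATS2 library 2. Both the lower and the higher count therefore depend in part on the filter. PARD3, a polarity scaffold bound by the JAMs, rose from 34.9 and 34.3 CPM to 65.1 and 64.5 CPM (0.91 ± 0.07 SE, adjusted p = 9.0e-17), and ARHGEF2, a RhoA activator held at tight junctions, rose as well (0.75, adjusted p = 2.2e-15). MAGI1, another scaffold, fell (−0.60, adjusted p = 5.3e-07). Of 11 tested adherens junction genes, 3 were lower and 5 higher (median 0.14). The classical cadherins of epithelia moved apart: P-cadherin (CDH3), of basal cells, fell from 25.2 and 24.9 CPM to 3.79 and 2.63 CPM (−2.88, adjusted p = 1.1e-28), while E-cadherin (CDH1), which does not pass the 10 CPM rule for named genes and is given here after its values were seen, stood at 0.353 and 0.318 CPM and then at 2.84 and 2.12 CPM (2.91, adjusted p = 4.6e-10). E-cadherin had 16 and 12 counts in shControl and 72 and 25 counts in shYEATS2. It reached the filter's level in both shYEATS2 libraries but not in shControl library 2. LIMA1, an actin binder at adherens junctions, rose (1.22, adjusted p = 3.1e-25).

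The keratins, to which desmosomes are anchored, were mostly lower. Of 10 tested, 8 were lower and 2 higher (KRT7 and KRT15, both under 10 CPM on average), with a median of −1.65. Among the lower keratins, 1 that averaged under 1 CPM passed the count filter through the shControl libraries alone. The keratin counts and median therefore depend in part on the filter. KRT6A, a keratin of activated squamous cells, fell from 55.0 and 58.2 CPM to 1.38 and 2.21 CPM (−5.09, adjusted p = 1.2e-41). Of 4 tested cornified envelope genes, 0 were lower and 1 was higher (median 0.01), the protease inhibitor gene CSTA (0.54, adjusted p = 5.0e-08). Of 9 tested hemidesmosome genes, 2 were lower and 2 higher (median −0.04). Among them ITGA6, the integrin chain that binds laminin, rose (1.49, adjusted p = 5.3e-22) and CD151, its tetraspanin partner, fell (−0.38, adjusted p = 1.6e-06). Of 6 tested connexins, 1 was lower, GJA1 (−0.25, adjusted p = 0.0045), and 4 were higher (median 0.68), led at 10 CPM and above by GJC1 (0.39, adjusted p = 1.8e-05). Among the higher connexins, GJB2 had 9 and 10 counts in shControl and 18 and 6 counts in shYEATS2. GJD3 had 8 and 5 counts, then 10 and 10 counts. Both passed the count filter through the shYEATS2 libraries alone, so the connexin counts and median depend in part on the filter.

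Of 6 tested junction proteases and their inhibitors, 4 were lower and 1 higher (median −0.70). The matrix metalloprotease MMP7 fell (−2.41, adjusted p = 1.4e-25), and the sheddase ADAM17 rose (0.33, adjusted p = 1.9e-05). Of 5 tested epithelial transcription and splicing factors, 0 were lower and 4 higher (median 1.24), with KLF4, a factor of squamous differentiation, rising from 20.1 and 19.6 CPM to 60.2 and 52.7 CPM (1.52, adjusted p = 2.6e-25). Another of the higher genes, EHF, had 3 and 1 counts in shControl and 40 and 34 counts in shYEATS2. It passed the count filter through the shYEATS2 libraries alone. Of 8 tested repressors of epithelial genes, 2 were lower and 3 higher (median 0.01). TWIST1 fell from 275 and 310 CPM to 163 and 165 CPM (−0.83, adjusted p = 1.6e-18), and FOXC2 rose (0.83, adjusted p = 1.8e-13). Of the repressors named with the E-box, SNAI1 was lower (−0.88, adjusted p = 0.004) and ZEB1 higher (0.33, adjusted p = 4.9e-05). In the same list, SNAI2 (0.07, adjusted p = 0.35) and ZEB2 (−0.08, adjusted p = 0.35) were not called. SNAI1 was scarce in shControl, at 2.65 and 2.99 CPM, against 164 and 170 CPM for SNAI2. The values of SNAI1, SNAI2, ZEB1 and ZEB2 are given outside the rule for named genes, after they were seen. Any part of these genes in the results was not tested.

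**Figure D4:**
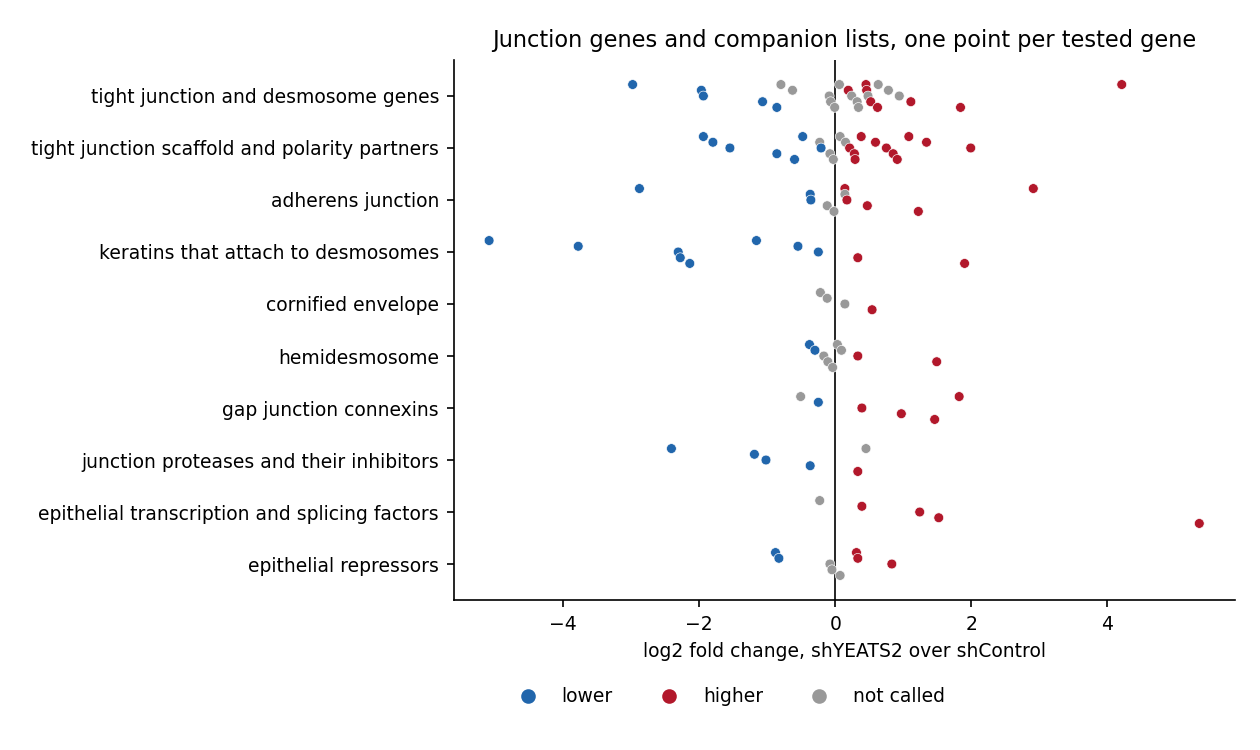
log2 fold change (shYEATS2 over shControl) of each tested gene, 1 point per gene, for the junction genes in the top row and the 9 companion lists below (blue, lower; red, higher; grey, not called; vertical offsets only separate points). Points of both colours appear in the top row, 8 of 10 keratins lie in blue on the left, and the epithelial transcription and splicing factors hold no blue point.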

How the data were processed

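BICR10 cells carrying a control hairpin or a hairpin against YEATS2 gave 4 RNA-seq libraries (2 per group), from stranded poly(A)-enriched preparations read in pairs. The authors aligned reads to GRCh38 with STAR, counted them per gene with HTSeq and deposited raw counts. For STAR's version, the gene annotation used and whether counting was stranded, nothing was given in the sources used here. Of all tallied read pairs, those assigned to no gene were 7.64% to 8.57%, ambiguous ones 4.31% to 4.61% and multi-mapped ones 3.25% to 3.53%, and all were left out.

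Genes passing edgeR's filterByExpr were scaled by TMM. The robust quasi-likelihood test of edgeR 4.0.16 (glmQLFit, then glmQLFTest; R 4.3.3) followed, with Benjamini-Hochberg adjustment over all 17058 and a call at an adjusted p under 0.05. CPM values are TMM-normalized and exon lengths and positions come from GENCODE 44, which held 60295 of the 60623 identifiers. Replicates differed by more than counting noise (chi-square per degree of freedom 5.95 in shControl and 5.39 in shYEATS2) and the common biological coefficient of variation was 4.95%. Floors of 3 counts and all intervals at 95% cover what is stated beside them. The steps were tested on simulated data.

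The members, roles, lists and tests were chosen with earlier results of these data known. Named genes are tested members averaging at least 1 CPM, with values per library for called ones and for EPCAM, OCLN, TJP1, DSP and JUP, and, in each list, the called genes with the largest rise and fall at 10 CPM or more, up to 3. Members under 1 CPM that were tested (CLDN4, CLDN7, JAM3, CGN, EVPL) are also given with their fitted values, and CLDN3 with its counts, a choice made after their values were seen. One symbol each of the polarity and cornified envelope lists had no row under that name (26 of 27 and 13 of 14 found) and was not analysed here. Alternatives were other scalings, filters and tests (limma 3.58.1, DESeq2 1.42.0), thresholds, thinning to 11334133 counts, a replicate block, and each library left out. The values of 1 tested member and 1 epithelial marker are not reported here, and both are kept in the counts and medians.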

Additional observations from a re-analysis of the deposited data

How the results depend on the processing

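With at least 10 counts required in every library, which tested 20 members, 3 were called lower, and with a change of at least 2-fold required 3 were called higher. Leaving out each library in turn, where the lone library left in a group is assumed to vary like the other group, gave 4 to 5 lower and 6 to 7 higher. A replicate block gave 5 lower and 7 higher, with the EVPL call lost (adjusted p = 0.056). The labels do not say whether the replicate numbers pair the libraries. Over all tested genes, the differences between libraries 1 and 2 in the 2 groups correlated at −0.018, which cannot settle how the libraries were prepared. Every other setting gave 4 to 5 lower and 6 to 8 higher, except library totals alone with 12 higher. Of the 26 tested members, 5 changed the sign of a fold change that was not called, and the cause was not tested. With library totals alone the log2 fold change was 0.04 for CLDN23, 0.06 for DSG2 and 0.13 for MARVELD2. MARVELD2 was at 0.00 with DESeq2 size factors, 0.01 with upper quartile scaling and with limma-voom, 0.02 after thinning, and between −0.07 and 0.02 with a library left out (0.00 without shControl library 2 and 0.02 without shYEATS2 library 2). PKP3 was at −0.02 without shControl library 1 or shYEATS2 library 1, and CLDN4 was at −0.15 without shYEATS2 library 1 and at up to 0.96 without another library. With library totals alone DSG3 (0.61, adjusted p = 0.048), PKP2 (0.38, adjusted p = 0.0060), F11R (0.45, adjusted p = 0.021) and JAM2 (0.48, adjusted p = 0.027) were called higher. The shallower shYEATS2 libraries limit the members under 1 CPM.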
